A study of Mus musculus with 42 samples.

Results

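The 107 genes described here are the protein-coding genes of oxidative phosphorylation, chosen by name from the 54532 genes that were measured in each of 3 cohorts of mouse kidneys. All 13 protein-coding genes of the mitochondrial genome were taken, together with 94 nuclear genes whose symbols begin as those of the subunits of complexes I to V do, leaving out names with Rik or -ps. By genome and complex, the mitochondrial genes held 7 subunits of complex I, 1 of complex III, 3 of complex IV and 2 of complex V. The nuclear genes held 36 subunits of complex I, 4 of complex II, 8 of complex III, 11 of complex IV and 17 of complex V, besides 8 assembly factors of complex I, 8 isoforms known from particular tissues or conditions, and 2 others (Atp5s and Cox7a2l). Ndufa4 was counted with complex IV, in which its protein resides. In each cohort 104 members had enough reads to be tested, among them 75 of the 76 nuclear subunits. Cox7b2, Cox8c and 1 of the 2 rows named Atp5o were not tested, and that row was at 0 reads in all 42 libraries.

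RNA of whole kidneys was sequenced to ask how loss of Tsc2, alone or together with Tfeb, and treatment with rapamycin changed gene expression. Tsc2 restrains the growth kinase complex mTORC1, which rapamycin inhibits, and Tfeb is a transcription factor of lysosomal genes. Each of 14 groups had 3 libraries. The CaggCreERT2 cohort consisted of Ctrl, Tsc2 KO, Tfeb KO and Tsc2+Tfeb DKO kidneys at an age of 30 days. Its Cre is induced by tamoxifen in the whole body, tamoxifen reached the pups through the milk of their mothers, and its controls carried Cre without floxed Tsc2. The KspCre cohort held the same 4 genotypes at 50 days, and its Cre is driven by the promoter of cadherin 16 and acts in the tubular epithelium. A further KspCre cohort, also at 50 days, consisted of Ctrl, Tsc2 KO and DKO kidneys after 11 injections of rapamycin (1 mg/kg) or of vehicle. Controls of both KspCre cohorts had no Cre, so in them Cre and the deletions cannot be told apart. All mice were C57BL/6.

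Oxidative phosphorylation is the production of ATP by the inner mitochondrial membrane. Complexes I (NADH dehydrogenase) and II (succinate dehydrogenase, also an enzyme of the citric acid cycle) feed electrons through complex III (cytochrome bc1) to complex IV (cytochrome c oxidase), and complex V (ATP synthase) uses the proton gradient that complexes I, III and IV build. Complexes I, III, IV and V are built from subunits of both genomes, and complex II from nuclear subunits alone. The proximal tubule of the kidney is rich in mitochondria and depends on this pathway to reabsorb solutes.

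The libraries had 14926050 to 22807605 reads counted on genes (median 17802376). The targeted genes were lower where they were deleted, with Tsc2 at 9.05 to 10.6 FPKM (fragments mapped, scaled by gene length and library size) in libraries with intact Tsc2 and at 4.06 to 5.64 in libraries with deleted Tsc2 of the CaggCreERT2 cohort. In the KspCre cohort the ranges of Tsc2 were 6.86 to 9.88 and 3.54 to 5.81, and in the drug cohort 8.18 to 9.81 and 3.796 to 6.503. Tfeb ranges overlapped in the KspCre cohort, at 3.66 to 6.24 FPKM with intact and 2.65 to 5.25 with deleted Tfeb, and did not overlap in the other 2 cohorts. In the CaggCreERT2 cohort the names of 4 libraries conflicted between the tables of counts and of FPKM, and those of the latter were followed, so Tfeb KO and DKO values of this cohort rest on that choice. By these names the third Tfeb KO library had Tsc2 at 10.2 FPKM and the DKO libraries at 5.26, 4.82 and 5.64. Under the count table's names the library at 10.2 would be a DKO and that at 5.26 a Tfeb KO. Counts of Xist and Ddx3y placed the 3 Ctrl libraries of this cohort as male, the 3 Tfeb KO libraries as female, and the Tsc2 KO and DKO groups as mixed with 2 and 1 female libraries. All libraries of both KspCre cohorts were female. Libraries 1 and 2 of the Tfeb KO group of the KspCre cohort stood apart in the ratio of short to long genes, as described below. All libraries had the proximal tubule markers of kidney.

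The 13 mitochondrial genes took a smaller share of all counted reads in the Tsc2 KO group than in Ctrl in each of the 3 cohorts. For the CaggCreERT2 cohort the share was 9.94%, 7.90% and 12.7% in the Ctrl libraries (10.2% ± 2.39, SD, n = 3) and 4.53%, 5.56% and 5.53% in the Tsc2 KO libraries (5.21% ± 0.586). For the KspCre cohort the values were 9.75%, 13.6% and 11.6% in Ctrl (11.6% ± 1.91) and 9.23%, 8.19% and 8.36% in Tsc2 KO (8.59% ± 0.558). Those of the drug cohort were 9.95%, 12.1% and 11.1% in vehicle-treated Ctrl (11.1% ± 1.09) and 7.06%, 4.81% and 5.15% in vehicle-treated Tsc2 KO (5.67% ± 1.21). The Tsc2 KO libraries lay below all Ctrl libraries of their cohort in all 3 cohorts. With 3 libraries against 3, an exact two-sided permutation test cannot give a p under 0.10, and every such comparison of shares that did not overlap has this value. Fewer cells of a type and less RNA per cell cannot be told apart in RNA of whole kidneys.

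Mean shares of DKO kidneys (9.23%, 9.93% and 8.34%, with vehicle in the drug cohort) lay between those of Tsc2 KO and of Ctrl in the 3 cohorts. By library they were 7.87%, 10.3% and 9.55% in the CaggCreERT2 cohort, 9.59%, 10.2% and 9.98% in the KspCre cohort and 9.13%, 6.99% and 8.89% with vehicle in the drug cohort. The first 2 of these sets lay above all Tsc2 KO libraries of their cohort, and in the drug cohort the DKO library at 6.99% lay just below the Tsc2 KO library at 7.06%. With rapamycin the share was 10.7%, 10.2% and 9.38% in Ctrl, 8.20%, 9.26% and 9.94% in Tsc2 KO and 8.96%, 10.7% and 8.86% in DKO. The rapamycin-treated Tsc2 KO libraries were all above the vehicle-treated ones. Tfeb KO kidneys had shares of 13.03%, 11.97% and 8.72% in the CaggCreERT2 cohort, within reach of Ctrl, and of 20.0%, 16.5% and 11.9% in the KspCre cohort, where the first 2 libraries lay above all others of the series. Nuclear members together took 2.04% to 3.03% of reads in all 42 libraries. In the CaggCreERT2 cohort their share was 2.35% to 2.80% in Tsc2 KO and 2.82% to 2.99% in Ctrl, without overlap. The ranges of these groups overlapped in the KspCre cohort and, with vehicle, in the drug cohort. Counting error was at most 0.0189 percentage points either side of a share (95% binomial interval), so the spread between libraries sets the precision.

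**Figure D1:**
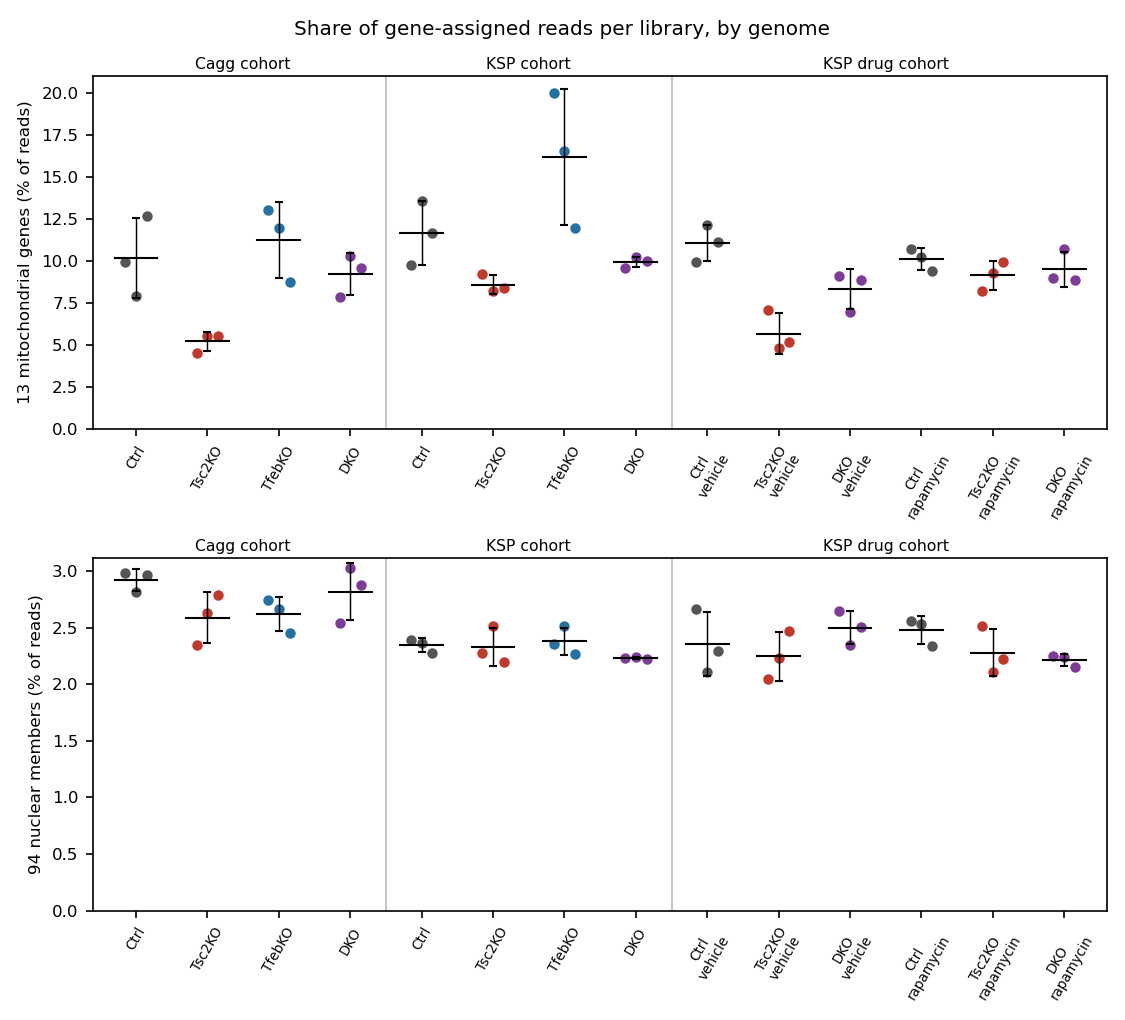
Share of counted reads (percent, y axis) on the 13 mitochondrial and on the 94 nuclear members in each library (points) and group (x axis), with the mean and SD of 3 libraries. The Tsc2 KO libraries sit below the Ctrl libraries of their cohort in the mitochondrial panel. The nuclear share lies between 2.04% and 3.03%, and in the CaggCreERT2 cohort it is also lower in all Tsc2 KO than in all Ctrl libraries.

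Levels of single members spanned several orders of magnitude. The mitochondrial genes fell into 2 bands of mean FPKM over the 42 libraries, with 7 genes at 5143 to 25124 (mt-Co1 at 25124, mt-Cytb at 15174 and mt-Nd1 at 13342 led) and 6 genes at 11.1 to 257 (mt-Nd3, mt-Nd4l, mt-Co2, mt-Co3, mt-Atp6 and mt-Atp8). A near-copy of part of the mitochondrial genome lies in the nuclear genome at chr1:24612775-24616197 (mm10), where the table holds 5 unprocessed pseudogenes. Of these, Gm28661 had 964 to 10732 reads and Gm28437 582 to 4553, so reads of the low band may have been shared with these rows, and levels in that band are uncertain. mt-Atp8 with mt-Atp6 and mt-Nd4l with mt-Nd4 overlap, and the library did not keep the strand, so mt-Nd6, the only member on the light strand, cannot be told from antisense RNA of the other strand. Among nuclear subunits, the highest mean of each complex was that of Ndufa1 at 216 FPKM (I), Sdhd at 229 (II), Uqcr10 at 438 (III), Cox6a1 at 1175 (IV) and Atp5a1 at 759 (V).

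In the 3 Tsc2 KO groups without rapamycin the mitochondrial genome stood further below Ctrl than the nuclear subunits of any complex. Summed over its 13 genes, its FPKM in vehicle-treated Tsc2 KO kidneys of the drug cohort was 43.5% of the Ctrl mean, and the nuclear subunits of complexes I to V stood at 85.6%, 71.2%, 85.4%, 95.4% and 80.3%. By complex, the mitochondrial subunits of this group stood at 47.9% (I), 43.4% (III), 37.4% (IV) and 25.3% (V). The CaggCreERT2 Tsc2 KO group stood at 48.9% for the mitochondrial genome and at 80.5%, 80.3%, 80.6%, 87.4% and 85.4% for nuclear complexes I to V. KspCre Tsc2 KO kidneys stood at 69.9% for the mitochondrial genome and 90.4% to 96.7% for the nuclear complexes, but its 2 mitochondrial genes of complex V, both of the low band, were at 113%. Complex II, the complex without a mitochondrial subunit, had the lowest nuclear level of any complex and group, in vehicle-treated Tsc2 KO of the drug cohort. In the CaggCreERT2 Tfeb KO group the order was the other way, with complex I at 106% for its mitochondrial and 88.8% for its nuclear subunits and complex III at 104% and 87.2%. The libraries of this group were all female and those of its Ctrl all male, so genotype and sex cannot be told apart there. The highest level of the mitochondrial genome (149%) and of nuclear complex I (122%) was that of the Tfeb KO group of the KspCre cohort. DKO groups ranged from 73.3% (vehicle, drug cohort) to 93.2% (CaggCreERT2) for the mitochondrial genome.

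**Figure D2:**
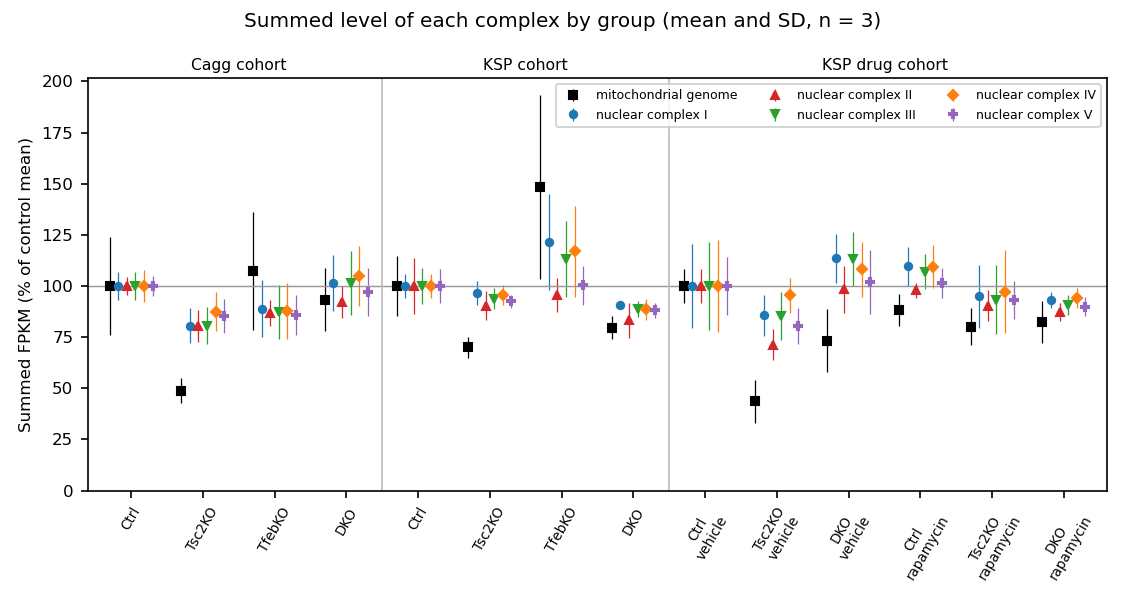
Summed FPKM of the mitochondrial genome and of the nuclear subunits of complexes I to V, as a percent of the mean of the cohort's Ctrl group (y axis, drug cohort: vehicle-treated Ctrl), by group (x axis), as mean and SD of 3 libraries. The mitochondrial genome has the lowest point in all 3 Tsc2 KO groups without rapamycin, at 48.9%, 69.9% and 43.5%.

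For a view of the DNA beside these levels, the promoters of 4 nuclear subunits are printed, taken from RefSeq (GRCm38.p6), each from 250 bases before to 50 after the gene's start in RefSeq. The start in the deposited gene table can differ, and for Ndufs7 it lies at 80249121, upstream of the whole window. They were picked as 2 subunits of complex II, 1 called lower in Tsc2 KO (Sdha) and 1 not called (Sdhd), 1 of complex III (Uqcrc1) and the complex I subunit called lower in all 3 cohorts (Ndufs7). Capitals mark matches to NRF1 (GCGCANGCG), ERR (TCAAGGTCA) or YY1 (AAGATGGCG), searched on both strands, and so the ERR match in Sdhd reads as its reverse complement. The windows lie at chr13:74350191-74350490 on the minus strand (Sdha), chr9:50603800-50604099 on the minus strand (Sdhd), chr9:108936398-108936697 on the plus strand (Uqcrc1) and chr10:80249199-80249498 on the plus strand (Ndufs7).
Sdha: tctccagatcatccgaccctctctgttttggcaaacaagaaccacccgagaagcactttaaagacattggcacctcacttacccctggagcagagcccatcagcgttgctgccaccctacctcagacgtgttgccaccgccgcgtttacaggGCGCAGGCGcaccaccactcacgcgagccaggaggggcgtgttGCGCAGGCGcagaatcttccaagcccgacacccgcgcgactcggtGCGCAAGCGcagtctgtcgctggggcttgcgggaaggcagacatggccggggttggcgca
Sdhd: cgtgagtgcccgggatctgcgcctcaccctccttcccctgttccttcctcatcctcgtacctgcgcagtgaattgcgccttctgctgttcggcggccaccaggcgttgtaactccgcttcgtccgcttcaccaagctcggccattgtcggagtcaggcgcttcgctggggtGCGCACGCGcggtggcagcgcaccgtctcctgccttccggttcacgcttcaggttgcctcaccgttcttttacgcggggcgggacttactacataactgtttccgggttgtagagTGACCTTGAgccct
Uqcrc1: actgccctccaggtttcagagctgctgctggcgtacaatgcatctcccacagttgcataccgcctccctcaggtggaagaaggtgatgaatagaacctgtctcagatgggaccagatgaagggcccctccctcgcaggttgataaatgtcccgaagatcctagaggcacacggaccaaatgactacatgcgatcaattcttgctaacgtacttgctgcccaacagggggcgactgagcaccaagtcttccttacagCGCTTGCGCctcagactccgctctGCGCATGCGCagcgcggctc
Ndufs7: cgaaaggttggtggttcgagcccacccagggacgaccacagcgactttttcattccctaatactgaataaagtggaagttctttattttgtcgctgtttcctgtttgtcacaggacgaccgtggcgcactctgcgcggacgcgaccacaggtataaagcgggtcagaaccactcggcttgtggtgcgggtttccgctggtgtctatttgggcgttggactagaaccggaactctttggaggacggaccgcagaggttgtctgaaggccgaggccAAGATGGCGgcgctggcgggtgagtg

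The Sdha window held 3 NRF1 matches, starting 98, 55 and 10 bases before the start, and the Uqcrc1 window held 3, of which 2 overlap. Nuclear respiratory factor 1 is a known activator of respiratory chain genes, as are the estrogen-related receptors (ERR). Of 62 nuclear subunits with a window, 20 (32.3%) held an NRF1 match, against 7.03% of all 27025 promoters, with 7 of 13 in complex V, 8 of 32 in complex I, 2 of 3 in complex II, 2 of 5 in complex III and 1 of 9 in complex IV. A YY1 match was in 7 (11.3%), 5 of complex I and 2 of complex V, against 1.64% of all promoters, and an ERR match in 2 (3.23%) against 0.47%. GABP (CCGGAAGT) was in 5 (8.06%) against 4.31%. The long CLEAR sequence of TFEB (GTCACGTGA) was in 1 (1.61%), against 0.9% of all promoters, and the shorter E-box it contains (CACGTG) in 5 (8.06%) against 8.09%. Matches describe these letters in these windows only, and 74 of 93 nuclear symbols had a window.

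Vehicle-treated Tsc2 KO kidneys of the drug cohort had the most members called against their Ctrl. In edgeR's quasi-likelihood test (a call needs a mean of 5 FPKM or more in a group compared and, with Benjamini-Hochberg adjustment over all genes tested, p no higher than 0.05), 47 of 104 members fell and 0 rose, where 11.7% of all 17027 genes tested fell and 11.3% rose. Unadjusted p was 0.05 or lower for 51 members, and DESeq2 also called 47 lower and 0 higher. Of the 13 mitochondrial genes 12 fell (median log2 fold change -1.37), and in all 13 the 3 Tsc2 KO libraries lay below the 3 Ctrl libraries, as in 23% of all genes tested. Of the 75 nuclear subunits 29 fell, with a median of -0.27. Over all genes the median was 0.01.

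mt-Nd3, a complex I subunit in the low band, was at 290.6, 393 and 215 FPKM in Ctrl and at 96.9, 80.0 and 94 in Tsc2 KO, a log2 fold change of -1.73 ± 0.17 (SE, edgeR adjusted p = 1.32e-06). mt-Co1, the catalytic subunit of complex IV, was at 26056, 36475 and 30041 FPKM in Ctrl and at 14707, 9631 and 10629.6 in Tsc2 KO (-1.40 ± 0.22, edgeR adjusted p = 0.000107). mt-Cytb, the mitochondrial subunit of complex III, was at 15829.8, 13807 and 16074 FPKM and at 7985, 5376 and 6497 (-1.20 ± 0.19, edgeR adjusted p = 0.000126). For all 3 genes the highest Tsc2 KO library stayed below the lowest Ctrl library. The other log2 fold changes that passed were -2.59 for mt-Co3, -1.996 for mt-Atp6, -1.58 for mt-Nd4l, -1.37 for mt-Co2, -1.30 for mt-Nd2, -1.27 for mt-Nd4, -1.06 for mt-Nd6, -1.02 for mt-Nd5 and -0.82 for mt-Nd1. mt-Atp8 had -1.53 and did not pass (edgeR adjusted p = 0.106).

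By complex, 14 of 36 nuclear subunits of complex I fell (median log2 fold change -0.31), 3 of 4 of complex II (-0.77), 3 of 8 of complex III (-0.20), 2 of 11 of complex IV (-0.17) and 7 of 16 of complex V (-0.18). Calls among nuclear subunits lay with the longer genes, as given below. The part of gene length in the differences between complexes was not tested. Of the 7 nuclear core subunits of complex I, those with the redox centers and the substrate sites, 6 fell. Ndufs1, the largest core subunit, was at 41.7, 43.1 and 41.9 FPKM in Ctrl and at 17.3, 21.4 and 24.6 in Tsc2 KO (-0.999 ± 0.143, edgeR adjusted p = 4.76e-05). Ndufs7, which carries an iron-sulfur cluster, was at 112, 112 and 113 FPKM and at 70.8, 56.6 and 64.1 (-0.82 ± 0.12, edgeR adjusted p = 7.57e-05). In both genes the groups were well apart. The assembly factors of complex I had 5 of 8 members lower, and Ndufaf1 was at 21.7, 20.6 and 22.7 FPKM in Ctrl and at 9.60, 13.4 and 11.6 in Tsc2 KO (-0.91 ± 0.12, edgeR adjusted p = 2.19e-05).

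In complex II the catalytic pair and one of the 2 membrane anchors fell, and the other anchor gave no call. Sdha, the flavoprotein, was at 266, 246 and 239 FPKM in Ctrl and at 115, 141 and 159 in Tsc2 KO (-0.85 ± 0.13, edgeR adjusted p = 6.82e-05). Sdhb, the iron-sulfur subunit, was at 192, 189 and 182 FPKM and at 117, 94.5 and 121 (-0.76 ± 0.12, edgeR adjusted p = 8.7e-05). Sdhc was at 110, 108 and 112 FPKM and at 59.97, 58.4 and 73.7 (-0.78 ± 0.12, edgeR adjusted p = 6.78e-05). These groups did not overlap. Sdhd was at 265, 168 and 214 FPKM in Ctrl and at 206, 232 and 255 in Tsc2 KO, with overlapping groups (0.10 ± 0.16, edgeR adjusted p = 0.665). Whether Sdhd differs from the other 3 subunits was not tested.

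In complex III the core protein Uqcrc2 was at 171, 219 and 180 FPKM in Ctrl and at 92.1, 98.04 and 111 in Tsc2 KO (-0.92 ± 0.15, edgeR adjusted p = 0.00015). Its partner Uqcrc1 had a log2 fold change of -0.51 and the Rieske iron-sulfur protein Uqcrfs1 of -0.59, both called. In complex IV, Cox6c (-0.62) and Ndufa4 (-0.44) fell. In complex V the catalytic subunit Atp5b was at 853, 804 and 840.4 FPKM in Ctrl and at 534, 570 and 642 in Tsc2 KO (-0.52), Atp5a1 had -0.43, Atp5f1 -0.51 and Atp5j -0.58, all called. The most abundant nuclear subunit of complex IV, Cox6a1, had 0.23 ± 0.22 (edgeR adjusted p = 0.425), and Uqcr10 of complex III 0.15 ± 0.21 (edgeR adjusted p = 0.622).

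The 15 proximal tubule markers summed to 8582 to 8857 FPKM in vehicle-treated Ctrl and to 1646 to 2798 in vehicle-treated Tsc2 KO, 12 of the 15 fell (median log2 fold change -2.50), and the 7 macrophage markers went from 45.0 to 61.1 FPKM up to 108 to 192. Markers of the distal convoluted tubule went from 246 to 304 FPKM down to 53.2 to 68.2, those of principal cells from 354 to 416 down to 249.2 to 297, those of intercalated cells from 126 to 159 up to 281 to 364, and those of blood from 200.4 to 301 down to 14.3 to 87.0. The part of these shifts in the members' values was not tested. Among nuclear subunits the calls lay with the longer genes, with 0 of 18 below 1000 bases, 7 of 15 from 1000 to below 1500 and 22 of 42 of at least 1500 called lower, and medians of -0.06, -0.29 and -0.36. Ctrl library 2 was low in short transcripts of other genes (0.814 of the cohort median). With the adrenal cortex markers as a covariate, chosen after seeing the data because they ranged from 1.3 to 1323 FPKM in the Tsc2 KO libraries, 31 members were lower in place of 47, with 12 mitochondrial genes among them.

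**Figure D3:**
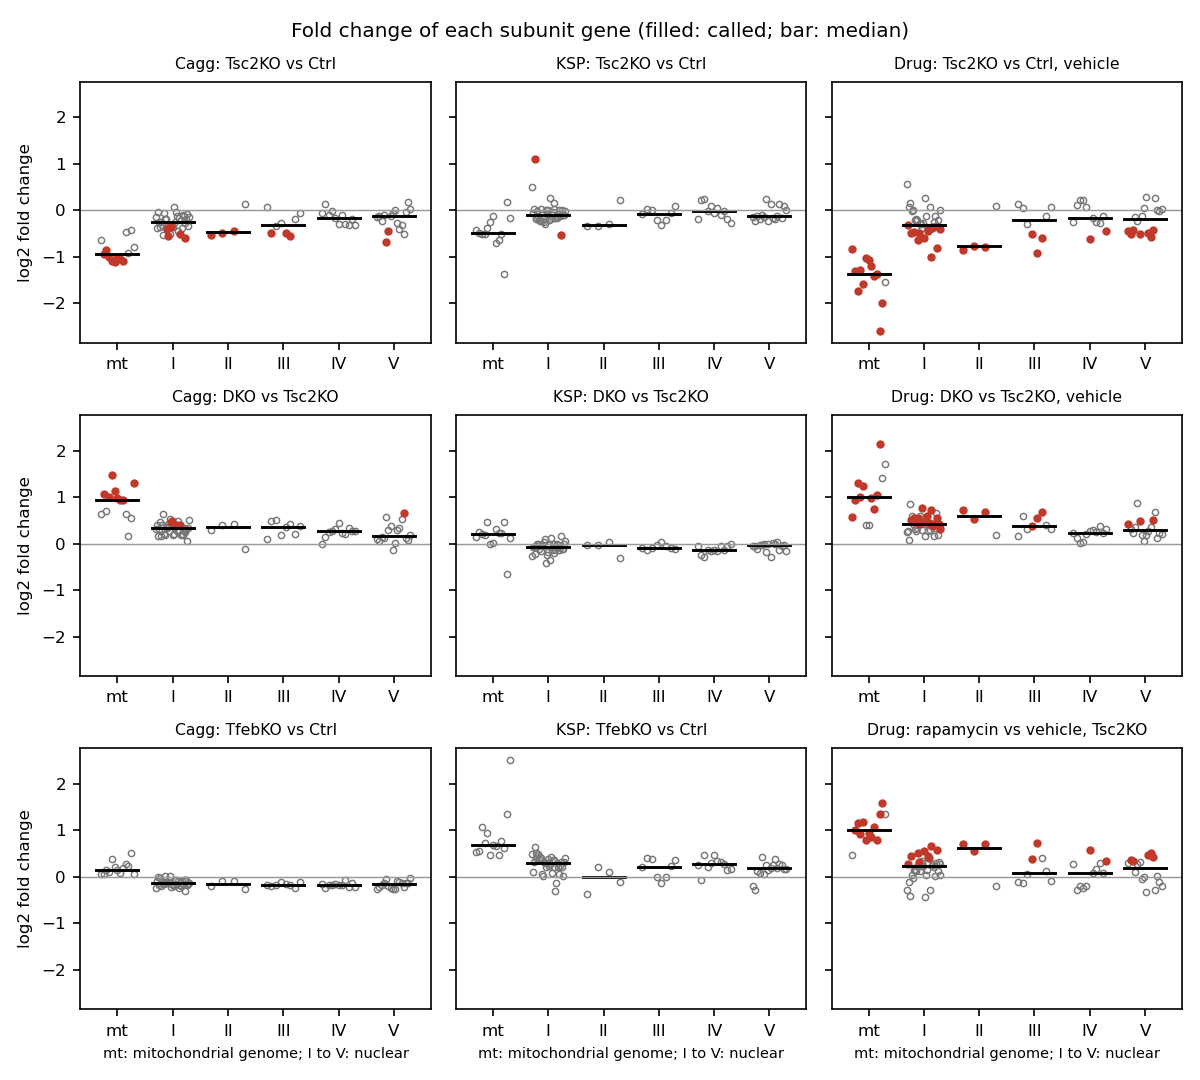
Log2 fold change (y axis) of each tested subunit gene, mitochondrial (mt) or nuclear of complexes I to V (x axis), in 9 comparisons. Filled points passed the test, and bars are medians. The mitochondrial median is -0.94, -0.48 and -1.37 for Tsc2 KO against Ctrl in the 3 cohorts and 1.01 for rapamycin in Tsc2 KO kidneys.

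Tsc2 KO kidneys of the CaggCreERT2 cohort also had lower levels of members of both genomes than their Ctrl. Of 104 members 27 fell and 0 rose, where 7.65% of the 16348 genes tested fell and 11.4% rose (unadjusted p of 0.05 or lower for 47 members, and 37 lower and 0 higher by DESeq2). Of the mitochondrial genes 8 fell and all 13 had a negative value (median -0.94), and of the nuclear subunits 14 of 75 fell and 68 had a negative value (median -0.26). By complex, 6 of 36 fell in complex I, 3 of 4 in complex II, 3 of 8 in complex III, 0 of 11 in complex IV and 2 of 16 in complex V, and 4 of 8 assembly factors fell.

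mt-Cytb was at 17184, 13802 and 22754 FPKM in Ctrl and at 7000, 8887 and 8976 in Tsc2 KO (-1.05). mt-Nd5 had the most negative value (-1.11, edgeR adjusted p = 0.00119), followed by mt-Nd4l (-1.10), mt-Co1 (-1.08), mt-Nd6 (-1.03), mt-Nd4 (-1.01), mt-Nd2 (-0.94) and mt-Nd3 (-0.86). The Tsc2 KO libraries lay below the Ctrl libraries in 10 of the 13, where 24.6% of all genes tested did so. Ndufs7 was at 133, 119 and 135 FPKM and at 69.1, 79.5 and 97.2 (-0.59 ± 0.15, edgeR adjusted p = 0.00969). Ndufs1 was at 38.3, 41.0 and 35.3 FPKM and at 22.8, 26.8 and 28.1 (-0.50 ± 0.11, edgeR adjusted p = 0.00413). Sdha was at 257, 249.7 and 218 FPKM and at 139, 164 and 178 (-0.53 ± 0.12, edgeR adjusted p = 0.00519). The groups of these 3 nuclear genes did not overlap. Sdhd, at 306, 279 and 275 against 287, 292 and 322 FPKM, had overlapping groups (0.13 ± 0.10, edgeR adjusted p = 0.361).

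The 15 proximal tubule markers summed to 7682 to 8427 FPKM in these Ctrl kidneys and 2332 to 4045 in Tsc2 KO, and 13 of them fell. Markers of the thick limb went from 1392 to 1724 FPKM down to 805 to 953, those of the distal convoluted tubule from 332 to 375 down to 55.2 to 173 and those of principal cells from 680.0 to 846 down to 283 to 429, while macrophage markers went from 90.1 to 120.4 up to 152 to 195 and smooth muscle markers from 29.9 to 38.2 up to 62.0 to 147. The part of these markers in the members' values was not tested. Only 10 members were lower with Xist as a covariate for sex, 11 without Ctrl library 3, 10 without Tsc2 KO library 1, and 8 with the ratio of short to long genes as a covariate chosen after seeing the data, in which 3 mitochondrial genes (median -0.53) were lower and the nuclear median was 0.00.

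In the KspCre cohort 1 member rose and 1 fell, where 4.38% of the 16631 genes tested rose and 4.06% fell. Ndufs7 was at 110.5, 109.5 and 109 FPKM in Ctrl and at 81.1, 80.9 and 68.2 in Tsc2 KO (-0.52 ± 0.15, edgeR adjusted p = 0.0373). Its groups did not overlap, but the call was lost when any of 5 of the 6 libraries (all but Ctrl library 1) was left out. Ndufa12, an accessory subunit of complex I, was at 24.9, 29.7 and 23.1 FPKM and at 67.2, 49.0 and 50.6 (1.10 ± 0.22, edgeR adjusted p = 0.00689). Levels of Ndufa12 in the drug cohort ranged from 12.0 to 75.5 FPKM between libraries and was not called in this contrast. No mitochondrial gene passed (unadjusted p of 0.05 or lower for 3 of 13), 12 of 13 had a negative value (median -0.48), and the nuclear median was -0.10. Proximal tubule markers summed to 7247 to 9176 FPKM in Ctrl and 3581 to 6386 in Tsc2 KO. Markers of the distal convoluted tubule (205 to 218 against 60.9 to 106 FPKM), principal cells (498 to 900.2 against 287 to 309) and blood (128 to 492 against 20.4 to 42.7) were also lower in Tsc2 KO without overlap. Those of the thick limb (1722 to 1874 against 2063 to 2289), intercalated cells (115 to 142 against 187 to 297), macrophages (56.7 to 80.1 against 105 to 170.2), fibroblasts (27.6 to 41.6 against 43.4 to 84.9) and T cells (1.32 to 1.74 against 2.01 to 3.17) were higher without overlap. The part of these markers in the members' values was not tested. DESeq2 called 3 members higher and 5 lower.

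Across the 3 cohorts, which share no libraries, 66 of 104 members had a negative value in all 3 and 7 a positive one. The negative ones held 12 mitochondrial genes and 45 of the 75 nuclear subunits. The share of all genes with the same sign in all 3 cohorts was not counted, so these counts have no background to be read against. Of the 15990 genes tested in both the CaggCreERT2 and the drug cohort, 960 (6%) were called lower in both. Over all genes, 1251 were called lower in the first cohort and 1995 in the second. Called lower in both were 22 of 104 members, 81.5% of those called in the first and 46.8% of those called in the second. They were 8 mitochondrial genes (mt-Nd2, mt-Nd3, mt-Nd4, mt-Nd4l, mt-Nd5, mt-Nd6, mt-Cytb and mt-Co1), Ndufs1, Ndufs7, Ndufa9 and Ndufab1 of complex I, Sdha, Sdhb and Sdhc of complex II, Uqcrc2 and Uqcrfs1 of complex III, Atp5f1 of complex V, and the assembly factors Ndufaf1, Ndufaf3, Ndufaf4 and Ndufaf6. Ndufs7 was called lower in all 3, and the share of all genes called lower in all 3 was not counted. Ages, drivers and treatment differ between the cohorts, and differences between them were not tested.

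Loss of Tfeb in addition to Tsc2 was compared with loss of Tsc2 alone. In the drug cohort, with vehicle, 36 of 104 members were higher in DKO than in Tsc2 KO and 0 lower, where 7.9% of all genes tested rose and 5.89% fell (unadjusted p of 0.05 or lower for 54 members, and 40 higher and 0 lower by DESeq2). Of the mitochondrial genes 9 rose (median 0.99), and of the nuclear subunits 24 of 75 rose (median 0.35), with all 75 positive. By complex these were 15 of complex I, 3 each of complexes II, III and V, and 0 of complex IV.

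mt-Nd3 was at 249.5, 195 and 226 FPKM in DKO, against 96.9, 80.0 and 94 in Tsc2 KO (1.31 ± 0.17, edgeR adjusted p = 6.01e-05). mt-Co3 was at 251, 195 and 864 FPKM in DKO and 118, 81.9 and 95.6 in Tsc2 KO (2.15), with DKO library 3 far above the other two and a value of 1.18 without it. Ndufs1 was at 38.9, 29.0 and 36.8 FPKM (0.73, edgeR adjusted p = 0.00169). Sdha was at 250.1, 198 and 237 FPKM (0.72, edgeR adjusted p = 0.000739). For mt-Nd3, mt-Co3, Ndufs1 and Sdha all DKO libraries lay above all Tsc2 KO libraries.

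Against Ctrl, the vehicle-treated DKO kidneys had 1 member higher and 0 lower, where 2.44% of genes rose and 1.39% fell (unadjusted p of 0.05 or lower for 10 members, and 1 higher and 1 lower by DESeq2), with a mitochondrial median of -0.35 and a nuclear one of 0.09. With the ratio of short to long genes described below as a covariate, chosen after seeing the data, these medians were -0.26 and -0.15. The 2 DKO comparisons and that of Tsc2 KO with Ctrl share libraries, so their values are not independent. Proximal tubule markers summed to 4610 to 8397 FPKM in DKO, and 12 of 15 rose against Tsc2 KO. Other markers also moved without overlap from Tsc2 KO to DKO, with the distal convoluted tubule at 53.2 to 68.2 and 171 to 248.6 FPKM, principal cells at 249.2 to 297 and 456 to 855, the thick limb at 1039.7 to 1982 and 2334 to 2876, blood at 14.3 to 87.0 and 364 to 2153, and fat at 39.8 to 173 and 327 to 751. Macrophage markers, at 108 to 192 and 65.4 to 88.6, and those of intercalated cells, at 281 to 364 and 169 to 280.7, were lower in DKO, and the part of all these markers in the members' values was not tested. The ratio of short to long genes described below was also higher in all vehicle-treated DKO libraries (1.14 to 1.2) than in Tsc2 KO (0.920 to 1.00). With that ratio as a covariate, chosen after seeing the data, 14 nuclear subunits were higher and 7 lower (median 0.13), and 9 mitochondrial genes were higher (median 1.03). Leaving out the libraries whose adrenal cortex markers were over 100 FPKM, chosen after seeing the data, left 17 members higher (11 mitochondrial and 5 nuclear subunits among them), in a comparison of DKO library 3 alone, assumed to vary like the other groups, with 2 Tsc2 KO libraries. Leaving out Tsc2 KO library 1 or 2 or DKO library 1 or 3 left 23, 19, 18 and 22 higher.

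Among CaggCreERT2 kidneys 15 members were higher in DKO than in Tsc2 KO and 1 lower, where 3.34% and 3.66% of genes did so. They were 8 mitochondrial genes (median of the 13: 0.94, among them mt-Nd4l at 1.48 and mt-Atp8 at 1.29), the complex I subunits Ndufb3 (0.46), Ndufb4 (0.49), Ndufb8 (0.39) and Ndufs1 (0.41), Atp5k of complex V (0.67), and the isoforms Cox6a2 and Cox6b2. Cox7a2l, a factor of respiratory supercomplexes, fell by 0.49 (edgeR adjusted p = 0.0463), a call that passed in only 3 of 13 alternative settings and was lost with RLE scaling and with Xist as a covariate among others. mt-Nd3 was at 143, 185 and 161 FPKM in DKO and 83.5, 95.6 and 116 in Tsc2 KO, without overlap. Only 2 members were higher without Tsc2 KO library 1 or without DKO library 2, 3 without DKO library 3, 6 with Xist as a covariate and 4 with the names of the count table. With the ratio of short to long genes as a covariate, chosen after seeing the data, 1 mitochondrial gene was higher (median 0.51 in place of 0.94) and the nuclear median was 0.04 in place of 0.29. Proximal tubule markers summed to 5588 to 7877 FPKM in these DKO libraries against 2332 to 4045 in Tsc2 KO, and thick limb markers to 1223 to 1302 against 805 to 953. Markers of principal cells were also higher in DKO without overlap (469 to 654 against 283 to 429 FPKM), and those of smooth muscle (39.1 to 55.5 against 62.0 to 147) and skeletal muscle (2.44 to 3.93 against 5.53 to 12.2) lower, and their part in the members' values was not tested. Against Ctrl 2 members rose and 0 fell, where 4.95% and 2.3% of genes did so (unadjusted p of 0.05 or lower for 8, and 5 higher and 0 lower by DESeq2), and the mitochondrial median was -0.01.

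In the KspCre cohort 0 members were called between DKO and Tsc2 KO, where 0.0541% of genes rose and 0.0782% fell (unadjusted p of 0.05 or lower for 2, and 0 by DESeq2), with a mitochondrial median of 0.22. Markers of the distal convoluted tubule (129 to 203 against 60.9 to 106 FPKM) and principal cells (614 to 817 against 287 to 309) were higher in DKO without overlap. So were those of blood (74.4 to 623 against 20.4 to 42.7) and smooth muscle (35.4 to 40.6 against 14.5 to 24.7). Macrophage markers reached 718 FPKM in a DKO library, with a group median of 91.4. The part of these markers in the members' values was not tested. Between DKO and Ctrl 0 members were called as well, where 1.08% of genes rose and 0.722% fell (unadjusted p of 0.05 or lower for 8, and 1 higher by DESeq2).

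Loss of Tfeb alone gave 0 calls in either cohort. In the CaggCreERT2 cohort 0.00612% of genes rose and the same share fell, 5 members had an unadjusted p of 0.05 or lower, and the medians were 0.15 for the mitochondrial and -0.16 for the nuclear genes. Without Tfeb KO library 1, high in adrenal cortex markers and left out after seeing the data, these medians were -0.02 and -0.25. In this cohort the Tfeb KO libraries were all female and the Ctrl libraries all male, so loss of Tfeb alone and sex cannot be told apart. The interaction given below uses the same libraries. In the KspCre cohort 0% of genes rose or fell, 32 members had an unadjusted p of 0.05 or lower, and DESeq2 called 0 in both cohorts. There all 13 mitochondrial genes had a positive value (median 0.69, 8 at an unadjusted p of 0.05 or lower). mt-Nd3 was at 926, 615 and 357 FPKM in Tfeb KO and at 291, 328 and 287 in Ctrl, and mt-Cytb at 41542, 30159 and 18566 against 16418, 21394 and 19535. Libraries 1 and 2 were high and library 3 lay near Ctrl. Without libraries 1 and 2 and Tsc2 KO library 3, chosen after seeing the data, the mitochondrial median was -0.04, which rests on Tfeb KO library 3 alone, assumed to vary like the other groups. The effect of Tfeb loss with against without Tsc2, tested as an interaction, gave 0 members in both cohorts (unadjusted p of 0.05 or lower for 49 in the CaggCreERT2 and 20 in the KspCre cohort, and by DESeq2 11 higher in the first and 1 lower in the second), where 0.832% and 0.257% of genes were called higher and lower in the first and 0% in the second.

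**Figure D4:**
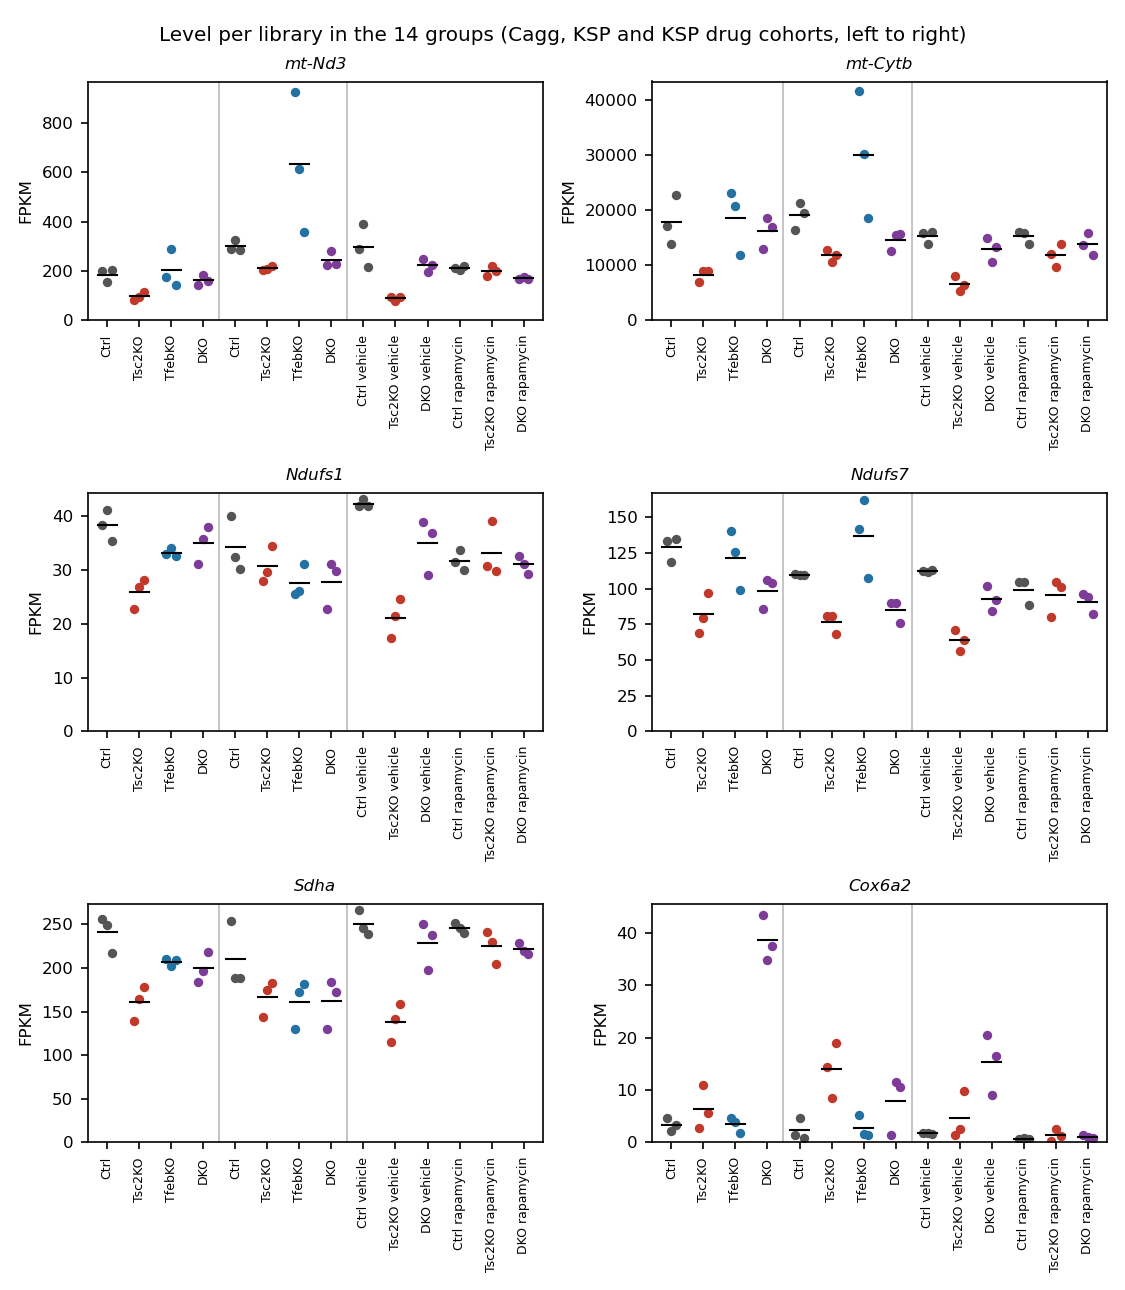
FPKM (y axis) of 6 members in each library (points) of the 14 groups (x axis). mt-Nd3, mt-Cytb, Ndufs1, Ndufs7 and Sdha are low in the Tsc2 KO groups without rapamycin of the CaggCreERT2 and drug cohorts, and Cox6a2 is at 34.8 to 43.4 FPKM in the DKO libraries of the CaggCreERT2 cohort.

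Rapamycin was compared with vehicle within each genotype. In Tsc2 KO kidneys 38 of 104 members rose and 0 fell, where 9.95% of genes rose and 8.13% fell (unadjusted p of 0.05 or lower for 48, and 42 higher and 0 lower by DESeq2). Of the mitochondrial genes 11 of 13 rose (median 1.01), and of the nuclear subunits 21 of 75 (median 0.22, 56 positive). By complex these were 9 of complex I, 3 of complex II (median of its 4 subunits 0.62), 2 each of complexes III and IV and 5 of complex V, and 5 of 8 assembly factors rose.

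mt-Nd3 was at 178, 219.7 and 202 FPKM with rapamycin (1.15 ± 0.17, edgeR adjusted p = 0.000101). Ndufs7 was at 80.3, 105 and 101 FPKM (0.58, edgeR adjusted p = 0.00193) and Sdha at 241, 230.3 and 205 (0.71, edgeR adjusted p = 0.00058). Ndufaf1 was at 19.4, 21.5 and 20.7 FPKM (0.83). All rapamycin libraries lay above all vehicle libraries of Tsc2 KO for these 4 genes. mt-Co3 (1.34), mt-Nd4l (1.19), mt-Co1 (1.06), mt-Nd2 (1.01), Uqcrc2 (0.73), Sdhc (0.70) and Ndufs1 (0.65) were also called, and Sdhd had -0.20 (edgeR adjusted p = 0.386). Proximal tubule markers summed to 7219 to 8504 FPKM with rapamycin, and 13 of 15 rose. Macrophage markers went from 108 to 192 FPKM with vehicle to 44.8 to 89.98 with rapamycin, those of the distal convoluted tubule from 53.2 to 68.2 to 125 to 236, those of principal cells from 249.2 to 297 to 306 to 595 and those of the thick limb from 1039.7 to 1982 to 2293 to 2874, and their part in the members' values was not tested. The call of mt-Co3 was lost without any of 5 of the 6 libraries (all but rapamycin library 1). With the adrenal cortex markers as a covariate 21 members rose, and 20 without vehicle-treated Tsc2 KO library 2.

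In Ctrl kidneys rapamycin gave 0 calls among members, where 0% of genes rose and 0.0294% fell (unadjusted p of 0.05 or lower for 6, and 0 by DESeq2), with medians of -0.17 for the mitochondrial and 0.09 for the nuclear subunits. The difference between the effects of rapamycin in Tsc2 KO and in Ctrl was tested as an interaction, which called 24 members higher and 0 lower (8.35% and 6.08% of genes), 7 of them mitochondrial (median of the 13: 1.13). In DKO kidneys rapamycin gave 0 members higher and 1 lower (1.24% and 2.13% of genes), the isoform Cox6a2 (unadjusted p of 0.05 or lower for 14 members, and 0 higher and 3 lower by DESeq2), and the nuclear median was -0.21 with 70 of 75 negative. All rapamycin-treated DKO libraries had lower ratios of short to long genes (0.913 to 0.969) than the vehicle-treated ones (1.14 to 1.2), and their markers of blood (106 to 309 against 364 to 2153 FPKM), intercalated cells (129 to 146 against 169 to 280.7) and macrophages (35.9 to 52.8 against 65.4 to 88.6) were lower without overlap, with a part in the members' values that was not tested. With the ratio as a covariate chosen after seeing the data the nuclear median was 0.06 with 8 subunits higher. The rapamycin effect in DKO against that in Tsc2 KO called 17 members lower and 0 higher (3.93% and 1.42% of genes), 4 of them mitochondrial and 12 nuclear subunits. That count ranged from 3 to 29 as single libraries were left out. It was 11 and 5 without vehicle-treated Tsc2 KO library 1 or 2, 4, 29 and 4 without vehicle-treated DKO library 1, 2 or 3, 6 and 9 without rapamycin-treated Tsc2 KO library 2 or 3, and 7, 10 and 3 without rapamycin-treated DKO library 1, 2 or 3. It was 8 without the libraries apart in short genes, and also 8 without those high in adrenal markers, which leaves vehicle-treated DKO library 3 alone in its group. With rapamycin in both, Tsc2 KO and Ctrl differed in 0 members (0.305% of genes higher and 0.0587% lower, unadjusted p of 0.05 or lower for 2 members, and 1 lower by DESeq2), with medians of -0.13 for the mitochondrial and -0.16 for the nuclear subunits. With the ratio of short to long genes as a covariate, chosen after seeing the data, these medians were -0.26 and 0.05.

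Of the isoforms known from particular tissues, Cox6a2, Cox8b and Cox6b2 were called in some comparisons. Whether the isoforms as a group differ from other members was not tested. Cox6a2, the form of subunit VIa in heart and skeletal muscle, was at 4.63, 2.25 and 3.26 FPKM in CaggCreERT2 Ctrl, at 2.84, 10.9 and 5.65 in Tsc2 KO, at 4.60, 3.95 and 1.77 in Tfeb KO and at 43.4, 34.8 and 37.4 in DKO. The 3 DKO libraries lay far above all others (3.55 ± 0.45 against Ctrl, edgeR adjusted p = 0.000363, and 2.56 ± 0.42 against Tsc2 KO, edgeR adjusted p = 0.00392). Drug cohort levels of Cox6a2 were 1.85, 1.80 and 1.54 FPKM in vehicle-treated Ctrl, 1.34, 2.53 and 9.86 in Tsc2 KO and 20.4, 9.10 and 16.6 in DKO. Here too DKO exceeded Ctrl (3.14 ± 0.66, edgeR adjusted p = 0.0111). With rapamycin DKO was at 1.41, 0.991 and 0.926 FPKM, below all 3 vehicle-treated DKO libraries (-3.79 ± 0.68, edgeR adjusted p = 0.0047).

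In the KspCre cohort without drug Cox6a2 was at 14.3, 8.55 and 19.0 FPKM in Tsc2 KO, above Ctrl at 1.41, 4.65 and 0.818 but without a call (2.602, edgeR adjusted p = 0.0559), and at 1.51, 11.6 and 10.5 in DKO. The 7 skeletal muscle markers summed to 1.63 to 2.25 FPKM in CaggCreERT2 Ctrl, 5.53 to 12.2 in Tsc2 KO, 0.852 to 2.56 in Tfeb KO and 2.44 to 3.93 in DKO, so both groups without Tsc2 lay above Ctrl, Tsc2 KO highest. In the drug cohort they summed to 1.52 to 2.75 FPKM in Ctrl, 1.94 to 2.83 in Tsc2 KO and 1.49 to 3.08 in DKO with vehicle and to 0.985 to 1.23 in DKO with rapamycin, and in the KspCre cohort to 1.52 to 3.24 in Ctrl, 1.61 to 3.58 in Tsc2 KO and 1.41 to 2.16 in DKO. Ckm, the muscle creatine kinase, was at 0 to 0.0428 FPKM in the CaggCreERT2 cohort. The part of muscle RNA in the level of Cox6a2 was not tested. The abundant form Cox6a1 stood at a mean of 1175 FPKM over all libraries.

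Cox8b, another muscle and brown fat form of complex IV, was at 0.162, 2.41 and 2.53 FPKM in CaggCreERT2 Ctrl and at 17.8, 13.3 and 73.2 in DKO (4.35 ± 1.08, edgeR adjusted p = 0.0232). The brown fat genes Ucp1 and Cidea were at 3.14, 0.618 and 13.7 FPKM and at 10.5, 0.637 and 49.6 in these DKO libraries. In Ctrl they were at 0, 0.468 and 0.174 FPKM and at 0.0501, 0.614 and 0.195. The 7 markers of white and brown fat summed to 6.03 to 350 FPKM in Ctrl and 60.7 to 760 in DKO, with overlap. The part of fat in the level of Cox8b was not tested. Cox6b2, known from testis, was at 17.9, 16.7 and 22.1 FPKM in CaggCreERT2 Ctrl and at 5.88, 11.1 and 9.22 in Tsc2 KO (-1.06, edgeR adjusted p = 0.00795), without overlap. The control libraries of this cohort were all male, and those of Tsc2 KO were not. In the KspCre cohort, all female, Cox6b2 was higher in the Tsc2 KO libraries (7.16, 7.79 and 7.88 FPKM) than in Ctrl (3.76, 5.00 and 3.62) and gave no call. Cox7a1 and Ndufa4l2 gave no call for Tsc2 KO against Ctrl in any cohort. Cox4i2 was at 1.60, 1.55 and 1.17 FPKM in vehicle-treated Ctrl and at 0.385, 0.503 and 0.516 in Tsc2 KO, below the level needed for a call.

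The ratio of short to long genes differed between libraries, for a reason that was not tested. Over the genes that are not members, the level of short genes relative to long ones (157 to 163 genes below 1000 bases and 4824 to 5476 of at least 1500) was 1.46 and 1.54 times the cohort median in Tfeb KO libraries 1 and 2 of the KspCre cohort, the 2 libraries with the highest mitochondrial shares. The lowest ratios were 0.768 in rapamycin-treated Tsc2 KO library 2, 0.790 in CaggCreERT2 Tsc2 KO library 1, 0.814 in vehicle-treated Ctrl library 2 of the drug cohort and 0.844 in KspCre Tsc2 KO library 3. Atp5e, a short subunit of complex V, was at 137, 35.5 and 88.8 FPKM in the vehicle-treated Ctrl libraries. In the drug cohort the vehicle-treated Tsc2 KO libraries had ratios of 0.920 to 1.00 and Ctrl of 0.814 to 1.15, which overlap, and with the ratio as a covariate 12 mitochondrial genes were lower in Tsc2 KO. Vehicle-treated DKO libraries had 1.14 to 1.2, above all vehicle-treated Tsc2 KO and all rapamycin-treated DKO libraries (0.913 to 0.969).

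**Figure D5:**
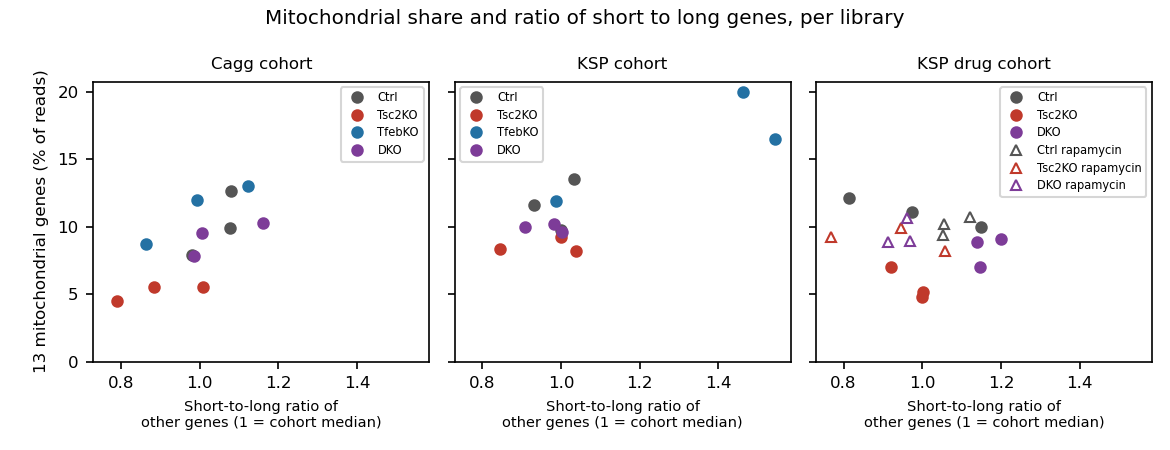
Share of reads on the 13 mitochondrial genes (percent, y axis) against the ratio of short to long genes outside the members, relative to the cohort median (x axis), for each library of the 3 cohorts. Tfeb KO libraries 1 and 2 of the KspCre cohort, at ratios of 1.46 and 1.54, have shares of 20.0% and 16.5%, and the vehicle-treated Tsc2 KO libraries lie low at ratios of 0.920 to 1.00.

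Genes that act around the pathway were taken from lists by their known roles. Of 18 regulators of mitochondrial biogenesis, 7 fell and 1 rose in CaggCreERT2 Tsc2 KO, 2 fell in KspCre Tsc2 KO, and 7 fell and 1 rose in vehicle-treated Tsc2 KO of the drug cohort. The shares of all genes tested that fell in these 3 comparisons, against which the counts of each list are to be read, were 7.65%, 4.06% and 11.7%, and those that rose 11.4%, 4.38% and 11.3%. Tfam, which packages mitochondrial DNA, fell by 0.39 and 0.54 on the log2 scale in the first and the third, and its FPKM in the third was 12.6, 13.6 and 12.4 in Ctrl against 8.96, 8.64 and 8.87 in Tsc2 KO. Tfb2m, a mitochondrial transcription factor, had -0.48 and -0.73, Gabpa, a nuclear activator, -0.34 and -0.85, and the receptor Esrrb -0.89 and -1.36, all called. Esrra had -0.35 in CaggCreERT2 Tsc2 KO and was called there only, and Myc rose by 1.63 and 0.85. Ppargc1a, a coactivator of biogenesis, ranged from 10.4 to 22.8 FPKM in the drug cohort and was not called in these contrasts. With rapamycin 6 of the 18 rose in Tsc2 KO, Gabpa by 0.61, Tfam by 0.39 and Tfb2m by 0.50 among them, and 6 were higher in vehicle-treated DKO than in Tsc2 KO, where 9.95% and 7.9% of all genes rose.

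Of 16 genes of mitochondrial DNA and RNA maintenance, 3, 2 and 6 fell in the Tsc2 KO groups of the CaggCreERT2, KspCre and drug cohorts. Top1mt, the mitochondrial topoisomerase, fell in all 3 (-0.90, -0.67 and -1.03), and Twnk, the helicase of mitochondrial DNA, in the drug cohort (-0.84). Both were higher with rapamycin (1.00 and 0.83) and in DKO (1.08 and 0.74) than in vehicle-treated Tsc2 KO. Of 18 genes of the citric acid cycle and pyruvate dehydrogenase, 7 fell in CaggCreERT2 Tsc2 KO and 11 in the drug cohort (medians -0.29 and -0.69), with Suclg1, a subunit of succinyl-CoA ligase, at -0.64 and -1.15 and Pdha1, of pyruvate dehydrogenase, at -0.41 and -0.94 in the CaggCreERT2 and drug cohorts. With rapamycin 9 of the 18 rose in Tsc2 KO. Of 39 assembly factors and carriers outside the members, 7 fell in the CaggCreERT2 and 7 fell and 2 rose in the drug cohort, among them Acad9 of complex I assembly (-0.67 and -1.34) and Coa6 of complex IV assembly (-0.96 and -1.27). Of the mitochondrial ribosomal proteins 9 of 78 fell and 1 rose in CaggCreERT2 Tsc2 KO, and 18 of 80 fell and 3 rose in the drug cohort.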

How the data were processed

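RNA of 42 whole kidneys (14 groups of 3) was measured. Per the labels, poly-A RNA was made into libraries that do not keep the strand, and the submitters' processing notes name STAR 2.6.1d, HISAT2 2.0.5, featureCounts 1.5.0-p3, DESeq2 1.20.0 and the build mm10, without saying which step each served. For each cohort the authors deposited read counts per gene, whole and not normalized, and FPKM, which the authors scaled by gene length and library size. Scaling per library makes a share rise where another falls, and reads of near-identical copies may be lost or split. All value columns were mapped to samples (0 were left over). In the CaggCreERT2 cohort column names of the 2 tables conflict for 4 libraries, and those of the FPKM table were used.

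Counts were tested in R 4.3.3 with edgeR 4.0.16 (limma 3.58.1), using filterByExpr, TMM scaling and glmQLFTest, with all groups of a cohort in 1 fit and no covariate, with Benjamini-Hochberg adjustment over all genes tested. Calls needed a p of at most 0.05 after adjustment and 5 FPKM or more on average in a group compared, thresholds that the study's methods give without a test. P-values measure the spread between these libraries. Depth was 14926050 to 22807605 reads per library, and intervals of shares cover counting error only. The procedure was tested on simulated data. Alternatives were DESeq2 1.42.0, RLE scaling, no filter, the replicate number as a block, library sizes without mitochondrial genes, Xist as a covariate, the count table's names, FPKM in place of counts for shares, leaving out each library, and, chosen after seeing the data, adrenal cortex markers and the ratio of short to long genes. A ratio over the members themselves was tried first and dropped, since it conditions on the members.

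Members and lists were chosen with earlier results of these data known. Named were the 13 mitochondrial genes, up to 5 members called each way with the largest change and groups apart, the most abundant nuclear subunit of each complex, the Sdh subunits, the isoforms and the regulators. Other called genes, and genes shown for a complex or list, were named after their values were seen. Promoter sequences are from RefSeq, and motifs were searched with up to 9 letters after a first search with longer forms of 3 of them.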

Additional observations from a re-analysis of the deposited data

Results flagged for a closer look

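The effect of rapamycin in Tsc2 KO kidneys of the drug cohort differed from that in Ctrl for 24 members by a test of the difference itself (an interaction term in edgeR). All 24 were called higher, where 8.35% of all genes tested were called higher and 6.08% lower. Among the 24 members, the difference in log2 fold change was 2.63 for mt-Co3, 1.65 for mt-Nd3, 1.48 for mt-Nd2, 1.31 for mt-Co1, 1.10 for mt-Nd4, 1.06 for mt-Co2 and 0.83 for mt-Cytb in the mitochondrial genome. In the nuclear genome it was 0.77 for Sdhc, 0.76 for Ndufs7, 0.73 for Sdha and 0.68 for Sdhb. For mt-Nd3 the edgeR adjusted p was 0.000217. With each of the 12 libraries left out in turn, mt-Cytb failed 9 times and the other 10 genes named here passed every time.

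The effect of rapamycin in DKO kidneys differed from that in Tsc2 KO for 17 members by the same kind of test. All 17 were called lower, where 3.93% of all genes tested were called lower and 1.42% higher. The difference in log2 fold change was -2.43 for mt-Co3, -1.54 for mt-Nd3, -1.06 for mt-Nd2, -0.91 for mt-Nd4, -0.82 for Sdhc, -0.75 for Sdha and -0.61 for Ndufs7. For mt-Nd3 the edgeR adjusted p was 0.00122. The count of 17 ranged from 3 (without rapamycin-treated DKO library 3) to 29 (without vehicle-treated DKO library 2) as single libraries were left out, and was 8 without the libraries apart in short genes and also without those high in adrenal markers, a setting with vehicle-treated DKO library 3 alone in its group. The value of mt-Co3 was -1.46 without vehicle-treated DKO library 3, the library in which its level stood far above the other two. With each of the 12 libraries left out in turn, mt-Nd3 and Sdhc passed every time, Sdha failed 3 times, mt-Co3 7 times, mt-Nd4 8 times and mt-Nd2 and Ndufs7 9 times. Both tests use the same Tsc2 KO libraries, so they are not independent of each other. Groups of 3 libraries were not tested for single outlying libraries.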

How the results depend on the processing

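Counts of members called are given here with their value in the main test in parentheses, and the cause of each shift was not tested. With DESeq2, CaggCreERT2 DKO against Tsc2 KO gave 28 higher (15), DKO against Ctrl 5 higher (2) and the interaction 11 higher (0). KspCre Tsc2 KO against Ctrl gave 3 higher (1) and 5 lower (1), DKO against Ctrl 1 higher (0) and the interaction 1 lower (0). In the drug cohort DESeq2 gave 1 lower for vehicle-treated DKO against Ctrl (0), 3 lower for rapamycin in DKO (1), 1 lower for Tsc2 KO against Ctrl with rapamycin (0) and 26 lower for the interaction of rapamycin with DKO against Tsc2 KO (17). Without a filter on low counts, CaggCreERT2 Tsc2 KO against Ctrl gave 2 higher (0), DKO against Tsc2 KO 24 higher (15), Tfeb KO 1 higher (0) and the interaction 9 higher (0), KspCre Tsc2 KO against Ctrl 2 higher (1) and DKO against Ctrl 1 higher (0), and in the drug cohort Tsc2 KO against Ctrl with rapamycin 1 lower (0) and the second interaction 10 lower (17). CaggCreERT2 DKO against Tsc2 KO lost its 1 lower member (0) with RLE scaling, with library sizes without mitochondrial genes, with the replicate block, with Xist as a covariate, with the count table's names and without the libraries apart in short genes.

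The replicate numbers did not pair the samples (median correlation of deviations 0.00881, -0.04 and -0.00502 in the 3 cohorts), and with the replicate number as a block CaggCreERT2 DKO against Tsc2 KO gave 5 higher (15) and KspCre Tsc2 KO against Ctrl 2 higher (1). With Xist as a covariate, CaggCreERT2 Tsc2 KO against Ctrl gave 10 lower (27), DKO against Tsc2 KO 6 higher (15) and DKO against Ctrl 1 higher (2). With the count table's names, DKO against Tsc2 KO gave 4 higher (15) and DKO against Ctrl 0 higher (2). The following were chosen after seeing the data. Without the libraries with adrenal markers over 100 FPKM, the CaggCreERT2 interaction gave 1 higher (0), and in the drug cohort vehicle-treated DKO against Tsc2 KO gave 17 higher (36), rapamycin in DKO 2 lower (1) and the second interaction 8 lower (17), these 3 with vehicle-treated DKO library 3 alone in its group and assumed to vary like the others. With adrenal markers as a covariate, vehicle-treated Tsc2 KO against Ctrl gave 31 lower (47) and rapamycin in Tsc2 KO 21 higher (38). Without the libraries apart in short genes, CaggCreERT2 Tsc2 KO against Ctrl gave 1 higher (0) and 10 lower (27), DKO against Tsc2 KO 2 higher (15), KspCre Tsc2 KO against Ctrl 3 higher (1) and 2 lower (1), and the second interaction 8 lower (17). With the short-gene ratio as a covariate, CaggCreERT2 Tsc2 KO against Ctrl gave 3 higher (0) and 8 lower (27), DKO against Tsc2 KO 2 higher (15), DKO against Ctrl 7 higher (2) and 1 lower (0), KspCre Tsc2 KO against Ctrl 3 higher (1), and in the drug cohort Tsc2 KO against Ctrl 4 higher (0), DKO against Tsc2 KO 7 lower (0), rapamycin in Tsc2 KO 1 lower (0), rapamycin in DKO 9 higher (0) and the second interaction 2 higher (0).

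Leaving out each library in turn, CaggCreERT2 Tsc2 KO against Ctrl gave 10 to 36 lower and 0 to 1 higher, DKO against Tsc2 KO 2 to 21 higher and 0 to 1 lower, DKO against Ctrl 1 to 3 higher and the interaction 0 to 2 higher. KspCre Tsc2 KO against Ctrl gave 1 to 2 higher and 0 to 1 lower, and DKO against Ctrl 0 to 1 higher. In the drug cohort vehicle-treated Tsc2 KO against Ctrl gave 33 to 48 lower and 0 to 2 higher, DKO against Ctrl 0 to 3 higher and 0 to 1 lower, DKO against Tsc2 KO 18 to 46 higher, rapamycin in Tsc2 KO 20 to 38 higher and 0 to 1 lower, rapamycin in DKO 1 to 2 lower, the first interaction 18 to 26 higher and 0 to 2 lower and the second 3 to 29 lower. The median log2 fold change of the 13 mitochondrial genes stayed between -1.18 and -0.79 for CaggCreERT2 and between -1.49 and -1.20 for vehicle-treated Tsc2 KO of the drug cohort, and over all genes it stayed within 0.04 of 0.

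As a share of summed FPKM in place of reads, the 13 mitochondrial genes took 19.9%, 10.7%, 21.04% and 18.4% in CaggCreERT2 Ctrl, Tsc2 KO, Tfeb KO and DKO, 23.1%, 17.8%, 29.0% and 20.1% in the same groups of the KspCre cohort, and in the drug cohort 23.2%, 12.9% and 17.5% in vehicle-treated and 20.7%, 19.6% and 20.0% in rapamycin-treated Ctrl, Tsc2 KO and DKO.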

Other observations

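Fat and adrenal genes varied from library to library within groups. Ucp1, a gene of brown fat, was at 46.5, 66.7 and 0 FPKM in the vehicle-treated Ctrl libraries and at 15.7, 149 and 38.2 in the vehicle-treated DKO libraries. Cox8b was at 60.2, 20.5 and 1.37 and at 47.7, 142 and 84.3 FPKM in the same libraries, so both genes were at their highest in DKO library 2 and at their lowest in Ctrl library 3. Adrenal cortex markers summed to over 100 FPKM in 4 libraries of the series.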
